A study of Mus musculus with 6 samples.

Results

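Late PSM and NMPs C are clusters of cells that the authors named in single-cell RNA sequencing of stembryos, embryo-like aggregates of mouse embryonic stem cells. They were compared at 120 h after aggregation, in each library that held both. The cells were chosen by the authors' deposited cluster name and by library: 1806 Late PSM cells and 3483 NMPs C cells, 5289 of the 26968 cells in the series and of the 15437 cells in the 3 libraries used. The libraries were whole stembryos, replicates 1 and 2, and the posterior part of dissected stembryos. Late PSM cells numbered 427, 110 and 1269 in these libraries, in that order, against 1581, 651 and 1251 NMPs C cells. All of them were wild type (wt), grown from 1 parental line of 129/SVEV embryonic stem cells, and had received the same early pulse of Chiron, a GSK-3 inhibitor that activates Wnt signaling. Each library came from a pool of stembryos, and those that had not elongated by 120 h had been discarded. Nothing in the labels says that the libraries came from separate cultures, so the p-values refer to these libraries only.

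Neuromesodermal progenitors (NMPs) sit at the posterior end of the elongating embryo. They coexpress the T-box factor T (Brachyury) and the neural factor Sox2, and give rise to both spinal cord and presomitic mesoderm (PSM). Wnt and FGF signals from the tail bud maintain them, and entry into mesoderm goes through Tbx6 and Msgn1, which act against the neural program. In the PSM the Notch-driven segmentation clock oscillates until the cells reach the determination front, where Mesp2 and Ripply2 prefigure the next somite boundary. Hox genes of higher paralogue number are activated later in the progenitors.

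The clusters were drawn by the authors from the expression of these same cells. A difference between them is therefore a description of the clusters, and a test of it can at most measure how evenly it repeated over the 3 libraries. It is not independent evidence that the clusters differ. Raw counts of unique molecular identifiers (UMIs) were summed over the cells of each cluster in each library, giving 6 sums of 1022334 to 28541172 UMIs. Levels below are CPM, UMI counts of these sums scaled to a common depth after TMM normalization. They are given in the order whole replicate 1, whole replicate 2 and posterior, and fold changes are Late PSM over NMPs C, with the library as a block. A gene was called at an adjusted p under 0.05 in edgeR's quasi-likelihood test. This test shares its estimates of variance between genes. The SE printed with a log2 change was derived from the F statistic of the test. It is not the spread of that gene's ratios over the 3 libraries, for which the levels of each library are given.

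The cluster names were checked against markers. Markers of the determination front and somites were called higher in Late PSM for 10 of 14 tested, at a summed 716 to 961 CPM in Late PSM and 61.0 to 118 CPM in NMPs C. All 16 PSM markers tested were higher in Late PSM. Msgn1, counted among them, had 0 UMIs in NMPs C and could only be called higher. The summed level of the list was 2482 to 2871 CPM in Late PSM over the libraries, against 519 to 1057 CPM in NMPs C. Of 15 NMP markers, 12 were lower in Late PSM and 0 higher, and their summed level was 598 to 839 CPM in Late PSM and 1401 to 2259 CPM in NMPs C. Ranked against the mean of the other clusters, the top 10 genes of Late PSM included the PSM markers Tbx6, Dll1 and Dll3. They also included Mesp1 and Mesp2, which mark the determination front. On a scale fitted over all clusters, Tbx6 averaged 125 CPM in Late PSM and 192 CPM in Early PSM. Dll3 averaged 277 and 278 CPM in these clusters, and Dll1 278 and 202 CPM. Tbx6 and Dll3 were thus not particular to Late PSM. Those of NMPs C were led by Hoxc10, Hoxa10 and Tril and included Cdx4, Cyp26a1 and Nkx1-2. On the same scale, Cdx4, Cyp26a1 and Nkx1-2 averaged 155, 54.9 and 103 CPM in NMPs C. They averaged 155, 110 and 120 CPM in NMPs A, and 111, 16.1 and 100 CPM in Spinal cord A. These genes were thus not particular to NMPs C. NMPs A and Early PSM had enough cells in 2 libraries. Markers of the spinal cord were at 136 to 158 CPM in Late PSM and at 301 to 481 CPM in NMPs C. Endoderm, germ cell, neural crest and notochord markers summed to at most 17.8, 9.08, 16.9 and 2.44 CPM in Late PSM and to at most 43.4, 13.0, 19.4 and 6.65 CPM in NMPs C. Their part in the results below was not tested. The blood and endothelial list was at 82.7 to 108 CPM in Late PSM and at 22.5 to 38.8 CPM in NMPs C, most of it Lmo2 (named after its value was seen, 70.8, 101 and 87.7 CPM in Late PSM), while Tal1 and Cdh5 were at 0 CPM in all 3 Late PSM sums, and Kdr and Pecam1 at no more than 0.891 and 0.294 CPM. The part of such cells in these values was not tested. Lateral and intermediate mesoderm markers summed to 22.2 to 28.5 CPM in Late PSM and to 5.11 to 6.22 CPM in NMPs C.

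The promoters of 4 genes are shown because these genes lie on both sides of the comparison and carry matches to the factors named above. Mesp1, Msgn1 and Hes7 were higher in Late PSM, and Cyp26a1 was lower. Each sequence is the 250 bases before the RefSeq start of transcription (GRCm38.p6), 5′ to 3′ on the strand of the gene. They lie at chr7:79793591-79793840 (minus strand), chr12:11208949-11209198 (minus strand), chr11:69120203-69120452 (plus strand) and chr19:37697558-37697807 (plus strand). Capitals mark AGGTGT, the core of the T-box element bound by T and Tbx6, CTTTGA, the core bound by the Wnt effectors TCF/LEF, and GTGGGAA, the core bound by the Notch effector RBPJ, searched on both strands.
Mesp1: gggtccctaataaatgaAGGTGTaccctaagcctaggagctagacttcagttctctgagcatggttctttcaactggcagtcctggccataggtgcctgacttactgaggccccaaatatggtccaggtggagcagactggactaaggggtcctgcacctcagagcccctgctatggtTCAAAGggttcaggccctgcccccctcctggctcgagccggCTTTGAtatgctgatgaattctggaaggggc
Msgn1: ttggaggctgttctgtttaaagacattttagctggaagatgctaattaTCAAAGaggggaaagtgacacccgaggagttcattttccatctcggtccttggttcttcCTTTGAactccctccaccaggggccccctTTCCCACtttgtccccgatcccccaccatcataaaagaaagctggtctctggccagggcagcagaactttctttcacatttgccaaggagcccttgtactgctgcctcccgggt
Hes7: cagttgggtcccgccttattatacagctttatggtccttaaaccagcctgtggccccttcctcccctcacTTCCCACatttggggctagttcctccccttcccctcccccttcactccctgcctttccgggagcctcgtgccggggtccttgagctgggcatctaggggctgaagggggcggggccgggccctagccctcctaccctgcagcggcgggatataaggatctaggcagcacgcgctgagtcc
Cyp26a1: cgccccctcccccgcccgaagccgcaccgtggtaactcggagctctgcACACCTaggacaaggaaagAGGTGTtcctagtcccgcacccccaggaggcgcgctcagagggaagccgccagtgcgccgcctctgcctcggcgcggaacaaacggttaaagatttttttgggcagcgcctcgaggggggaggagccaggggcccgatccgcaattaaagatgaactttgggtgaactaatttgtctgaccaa

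With the base before the start counted as -1, the Mesp1 window held a T-box match whose first base was at -233 and TCF/LEF matches at -72 and -31. The Msgn1 window held TCF/LEF matches at -202 and -143 and an RBPJ match at -114. The Hes7 window held an RBPJ match at -180, and the Cyp26a1 window T-box matches at -202 and -183. Among the other windows looked up, those of Aldh1a2, Aopep, Cdx4, Hes5 and T also held matches to these cores. Those of Tbx6, Mesp2, Dll1, Dll3, Sox2, Nkx1-2 and Cdx2, for example, held none. AGGTGT was present in 11.0% of the 299 matched promoters of genes called higher past 2-fold, in 8.77% of the 365 of genes called lower past 2-fold, and in 8.76% of the 9566 of all genes tested. For CTTTGA these shares were 10.4%, 11.5% and 10.3%, and for GTGGGAA they were 9.70%, 4.11% and 5.48%. CACGTG, an E-box, was in 6.69%, 6.03% and 8.75%. These matches are letters in a window and were not tested as binding sites.

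Of 13645 genes tested, 1376 (10.1%) were called higher and 1507 (11.0%) lower in Late PSM, and the median log2 change over all of them was 0.00. A change of at least 2-fold was called for 442 genes (3.24%) that were higher and 552 genes (4.05%) that were lower in Late PSM. These shares are the background for the lists below. Without whole replicate 1 the calls numbered 921 higher and 943 lower, and without the posterior library 891 and 1017.

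**Figure D1:**
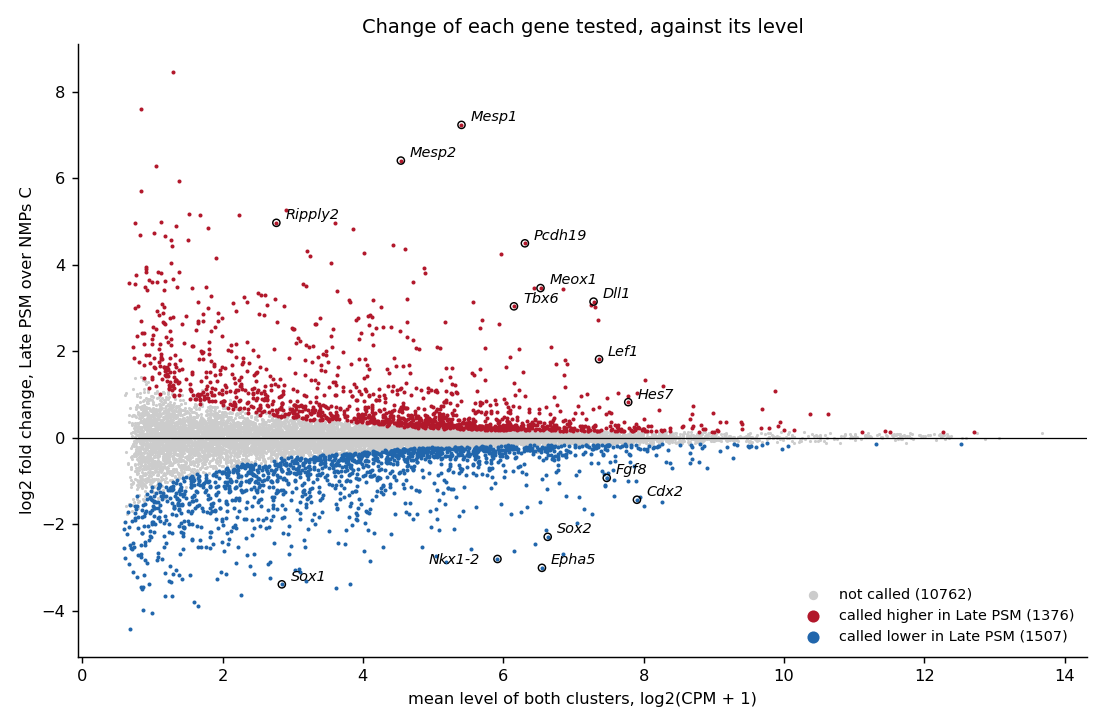
Log2 fold change of Late PSM over NMPs C (y axis) against the mean level of both clusters in log2(CPM + 1) (x axis) for the 13645 genes tested; red points were called higher and blue points lower in Late PSM, and ringed genes are named. Mesp1, at a change of 7.23, stands highest among genes of its level, and Sox2, Nkx1-2 and Epha5 lie between -2.29 and -3.01.

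The mesodermal factors were set apart most. Tbx6, the T-box factor that commits progenitors to the PSM, was at 117, 101 and 160 CPM in Late PSM, against 12.3, 4.73 and 26.2 CPM in NMPs C. Every Late PSM sum was above every NMPs C sum, and the log2 change was 3.04 ± 0.13 (SE from the test, n = 3 libraries). Msgn1, which acts with Tbx6 in the PSM, was barely detected. It was at 2.496, 0.891 and 1.31 CPM in Late PSM, 39 UMIs in all, against 0 UMIs in each NMPs C sum. With the UMIs of the 3 libraries pooled, and against a floor of 3 UMIs in NMPs C, this is at least 27.7-fold higher in Late PSM. The bound does not apply to single libraries. In whole replicate 2, 1 of 110 Late PSM cells held Msgn1.

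Mesp1 and Mesp2, bHLH factors of the anterior PSM, stood furthest apart among the other mesodermal factors. Mesp1 was at 90.3, 24.1 and 132 CPM in Late PSM, against 0.419, 0.384 and 1.04 CPM in NMPs C, a log2 change of 7.23 ± 0.13. Mesp2 was at 39.2, 16.04 and 76.7 CPM in Late PSM, against 0.628, 0.639 and 0.403 CPM in NMPs C, a log2 change of 6.41 ± 0.19. Both were lowest in Late PSM of whole replicate 2, the library with the fewest Late PSM cells, and neither overlapped between clusters. Of the 16 mesodermal factors tested, 15 were called higher and 1 lower in Late PSM. Msgn1, counted among the 15, passed the filter on its Late PSM counts alone and could only be called higher. The median log2 change of the list was 3.51, which did not change with Msgn1 set to its bound. Others of this list called higher were the protocadherin Pcdh19 (4.50 ± 0.09), the forkhead factors Foxc2 (4.24 ± 0.12) and Foxc1 (3.46 ± 0.07), Meox1 (3.46 ± 0.12) and Tcf15 (3.43 ± 0.13), regulators of somite formation, and the transcriptional coregulator Cited1 (3.08 ± 0.07). Snai2, called lower at a log2 change of -0.93 ± 0.29, stayed at or under 4.68 CPM throughout, and the call was lost without whole replicate 1 (-0.77) and without the posterior library (-1.08). Tbx3 was under the limit of counts for a test.

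**Figure D2:**
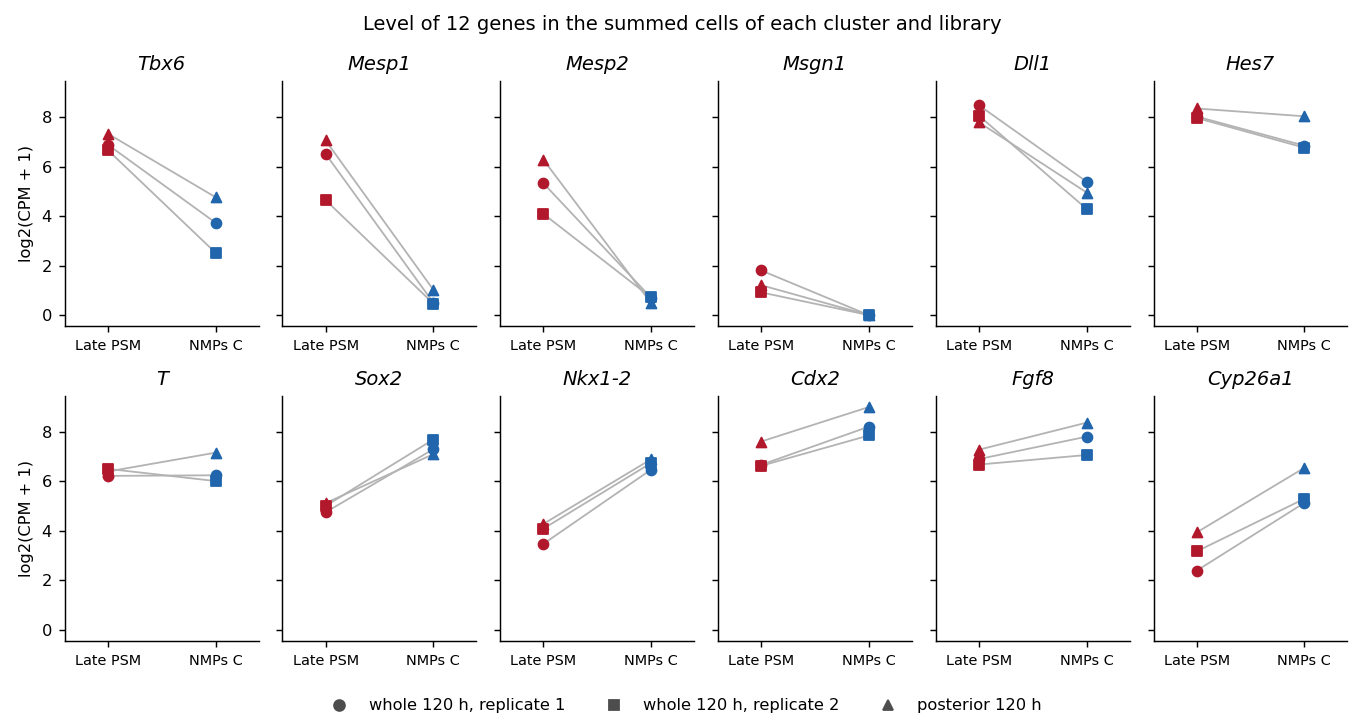
Level in log2(CPM + 1) (y axis) of 12 genes in the summed cells of Late PSM (left, red) and NMPs C (right, blue), with a line joining the sums of each library (circle, whole replicate 1; square, whole replicate 2; triangle, posterior). The lines of Tbx6, Mesp1, Mesp2 and Dll1 fall to the right in all 3 libraries and those of Sox2, Nkx1-2, Cdx2, Fgf8 and Cyp26a1 climb, whereas those of T cross.

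On the NMP side, 12 of 16 factors were called lower in Late PSM and 1 higher, with a median log2 change of -1.10. Sox2, which keeps progenitors open to the neural fate, was at 25.99, 31.2 and 33.9 CPM in Late PSM, against 157, 206 and 136 CPM in NMPs C, a log2 change of -2.29 ± 0.09. Nkx1-2, a homeobox factor of the NMP region, was at 10.1, 16.04 and 18.5 CPM in Late PSM, against 88.1, 106 and 118 CPM in NMPs C, a log2 change of -2.80 ± 0.09. For both, the Late PSM sums lay below all NMPs C sums. Hes3 (-3.06 ± 0.26) and Mnx1 (-2.86 ± 0.13) changed as much, at levels of at most 3.56 and 5.70 CPM in Late PSM and of 8.24 to 14.7 and 16.5 to 44.1 CPM in NMPs C.

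T itself, the other factor that defines NMPs, was not called. It was at 73.7, 90.0 and 83.4 CPM in Late PSM, against 75.0, 63.7 and 142 CPM in NMPs C, with a log2 change of -0.32 ± 0.12 and an adjusted p of 0.0534 in edgeR's test. The clusters overlapped, and the direction rested on the posterior library. Without that library the log2 change was 0.11, and without whole replicates 1 and 2 in turn it was -0.42 and -0.45, both called lower. The Wnt target Sp5, at 59.2, 49.0 and 96.3 CPM in Late PSM and 48.5, 33.8 and 118 CPM in NMPs C, was likewise not called (-0.00 ± 0.09), although it was called higher without the posterior library, at 0.34.

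The Cdx factors, which per reports cited by the paper activate more central Hox genes, were all lower in Late PSM, to different degrees. Cdx2 was at 101, 98.02 and 194 CPM in Late PSM, against 296, 231 and 512 CPM in NMPs C, a log2 change of -1.43 ± 0.06. Cdx4 was at 28.9, 37.4 and 43.4 CPM in Late PSM, against 134, 144 and 190 CPM in NMPs C, a log2 change of -2.14 ± 0.07. Cdx1 was at 25.1, 11.6 and 20.5 CPM in Late PSM, against 26.9, 19.8 and 34.5 CPM in NMPs C. The change of Cdx1 was -0.49 ± 0.11, and without the posterior library it was -0.19 and no longer called. Nr6a1, a nuclear receptor of trunk development, was the member called higher (0.24 ± 0.07), and this call was lost without whole replicate 1 (0.23) and without the posterior library (0.19).

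Per cell, these factors were counted as the share of cells with at least 1 UMI, after each cell had been thinned to 5000 UMIs. The median Late PSM cell held 12482 UMIs and 3642 genes and the median NMPs C cell 14202 UMIs and 3932 genes (means over the 3 libraries), lower in Late PSM in 3 of 3. Thinning left 1795 Late PSM and 3459 NMPs C cells, since 11 and 24 cells of whole replicate 2 held fewer UMIs. With 3 pairs the exact permutation test cannot go below a two-sided p of 0.25.

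Tbx6 was found in 38.4%, 42.4% and 47.9% of thinned Late PSM cells, against 5.82%, 3.03% and 9.51% of NMPs C cells. Sox2 was found in 10.1%, 10.1% and 10.6% of Late PSM cells, against 51.0%, 58.9% and 40.8% of NMPs C cells. Nkx1-2 was found in 4.92%, 5.05% and 6.62% of Late PSM cells and in 34.8%, 40.7% and 39.4% of NMPs C cells. Each of these differences had the same sign in 3 of 3 libraries (exact permutation p = 0.25, the smallest possible). T was found in 28.3%, 35.4% and 29.1% of Late PSM cells, against 26.1%, 25.7% and 45.2% of NMPs C cells, so that Late PSM was higher in both whole libraries and lower in the posterior library (exact permutation p = 1.0). Without thinning the mean shares over the libraries were 66.3% in Late PSM and 15.01% in NMPs C for Tbx6, 24.8% and 79.3% for Sox2, 14.1% and 69.2% for Nkx1-2, and 54.6% and 56.7% for T.

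Cells with UMIs of both T and Sox2, the pair that defines NMPs, made up 3.04%, 3.03% and 3.23% of thinned Late PSM cells. In NMPs C they made up 10.6%, 13.1% and 17.6%. With the 3 libraries pooled, the pair was in 13.6% of NMPs C and 22.1% of NMPs A cells. It was also in 9.42% of Endoderm and 7.50% of Spinal cord A cells. A pair share depends on the shares of its genes, and coexpression beyond these was not tested. Cells with T and Tbx6 made up 13.8%, 20.2% and 13.9% of Late PSM cells and 3.23%, 2.23% and 5.28% of NMPs C cells. Tbx6 with Sox2 was found in 2.58%, 4.04% and 3.70% of Late PSM cells and in 2.47%, 1.44% and 2.72% of NMPs C cells, and the clusters overlapped. Msgn1 was found in 36 of 1806 Late PSM cells and in 0 of 3483 NMPs C cells before thinning. Free RNA sets a background for such shares. Somite A cells of the 3 libraries should lack these genes. Sox2 was found in 3.80%, T in 1.38%, Tbx6 in 1.21% and Nkx1-2 in 1.38% of these cells after thinning. In the posterior library, which held 68 of these cells, the shares were 7.35%, 0%, 5.88% and 2.94%. Over Somite A cells of all 3 libraries, T with Sox2 was found in 0.110%, T with Tbx6 in 0.0550% and Tbx6 with Sox2 in 0.0550%. These are shares of 1818 thinned cells, whose median depth before thinning was 13252 UMIs. All pair shares in Late PSM and NMPs C were above these pair shares. Somite A cells held little of either gene of a pair, so they set no background for cells that express either gene. The part of free RNA in the pair shares was not tested.

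**Figure D3:**
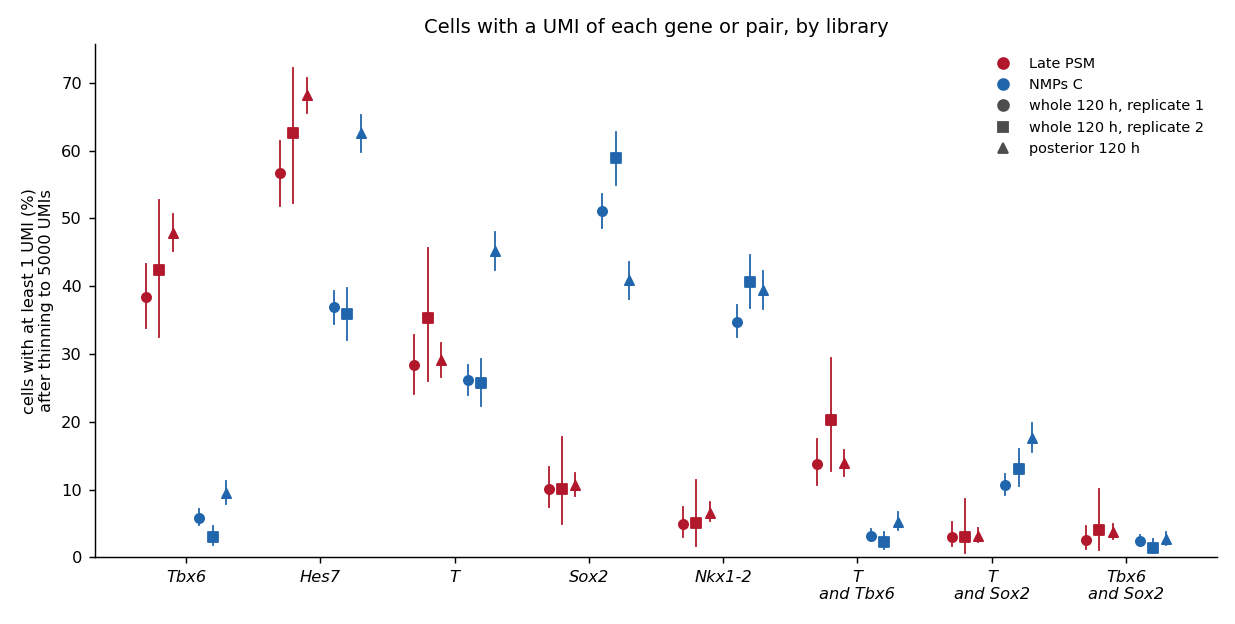
Share of cells with at least 1 UMI after thinning to 5000 UMIs (y axis, percent) for genes and pairs of genes (x axis) in Late PSM (red, left of each pair) and NMPs C (blue, right), by library; bars are 95% exact binomial intervals, which cover counting error only. The Tbx6 and Sox2 shares of the clusters lie far apart in all 3 libraries, whereas the T share of NMPs C is 25.7% to 26.1% in the whole libraries and 45.2% in the posterior library.

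Most neural factors were lower in Late PSM. Of 20 tested, 13 were called lower and 2 higher, with a median log2 change of -0.95, or -1.48 without the posterior library. Sox1, a marker of neural commitment, was at 0.441, 0 and 1.19 CPM in Late PSM, against 10.4, 16.6 and 8.41 CPM in NMPs C, a log2 change of -3.39 ± 0.28. Zic1 (-3.31 ± 0.23), Sox3 (-2.52 ± 0.15) and Pax6 (-2.46 ± 0.31) were called lower as well. The levels of these genes in NMPs C were small, at most 38.1 CPM for Sox3 and 8.44 CPM for Pax6. A member called higher was Fabp7, a fatty acid binding protein of neural progenitors. Fabp7 was at 83.1, 16.04 and 23.2 CPM in Late PSM and at 51.9, 12.8 and 26.3 CPM in NMPs C, and its log2 change of 0.32 became -0.10 without whole replicate 1.

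Notch and clock genes changed in both directions. Of 22 tested, 11 were called higher and 5 lower in Late PSM, with a median log2 change of 0.51. Dll1, the Notch ligand of the PSM, was at 356, 266 and 220 CPM in Late PSM, against 40.9, 18.5 and 29.96 CPM in NMPs C, a log2 change of 3.15 ± 0.09. Dll3, a ligand that dampens Notch signaling within the cell, was at 248, 242 and 350 CPM in Late PSM, against 25.2, 20.7 and 57.6 CPM in NMPs C, a change of 3.03 ± 0.10. The receptor Notch1 (2.10 ± 0.06) and Lfng, a cyclic modifier of Notch (3.02 ± 0.14), were also higher, and both are named here after their values were seen. Ripply2, which ends Tbx6 activity at the determination front, was at 13.1, 8.91 and 12.0 CPM in Late PSM, against 0.384, 0 and 0.519 CPM in NMPs C, a change of 4.97 ± 0.28.

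Hes7, the core repressor of the clock, was high in both clusters. It was at 259, 249 and 324 CPM in Late PSM, against 114, 108 and 260 CPM in NMPs C, a log2 change of 0.82 ± 0.10. Late PSM was higher within each library, but the posterior NMPs C sum reached the level of the whole Late PSM sums, so the clusters overlapped. Hes1 and Hes5, Notch targets that keep neural progenitors undifferentiated, were called lower (-1.35 ± 0.08 and -0.73 ± 0.10), as were the ligand Jag1 (-0.86 ± 0.14) and the modifier Mfng (-1.80 ± 0.21). Hes1 stood at 38.03, 123 and 50.4 CPM in Late PSM and at 125, 255 and 118 CPM in NMPs C, in both clusters highest in whole replicate 2.

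**Figure D4:**
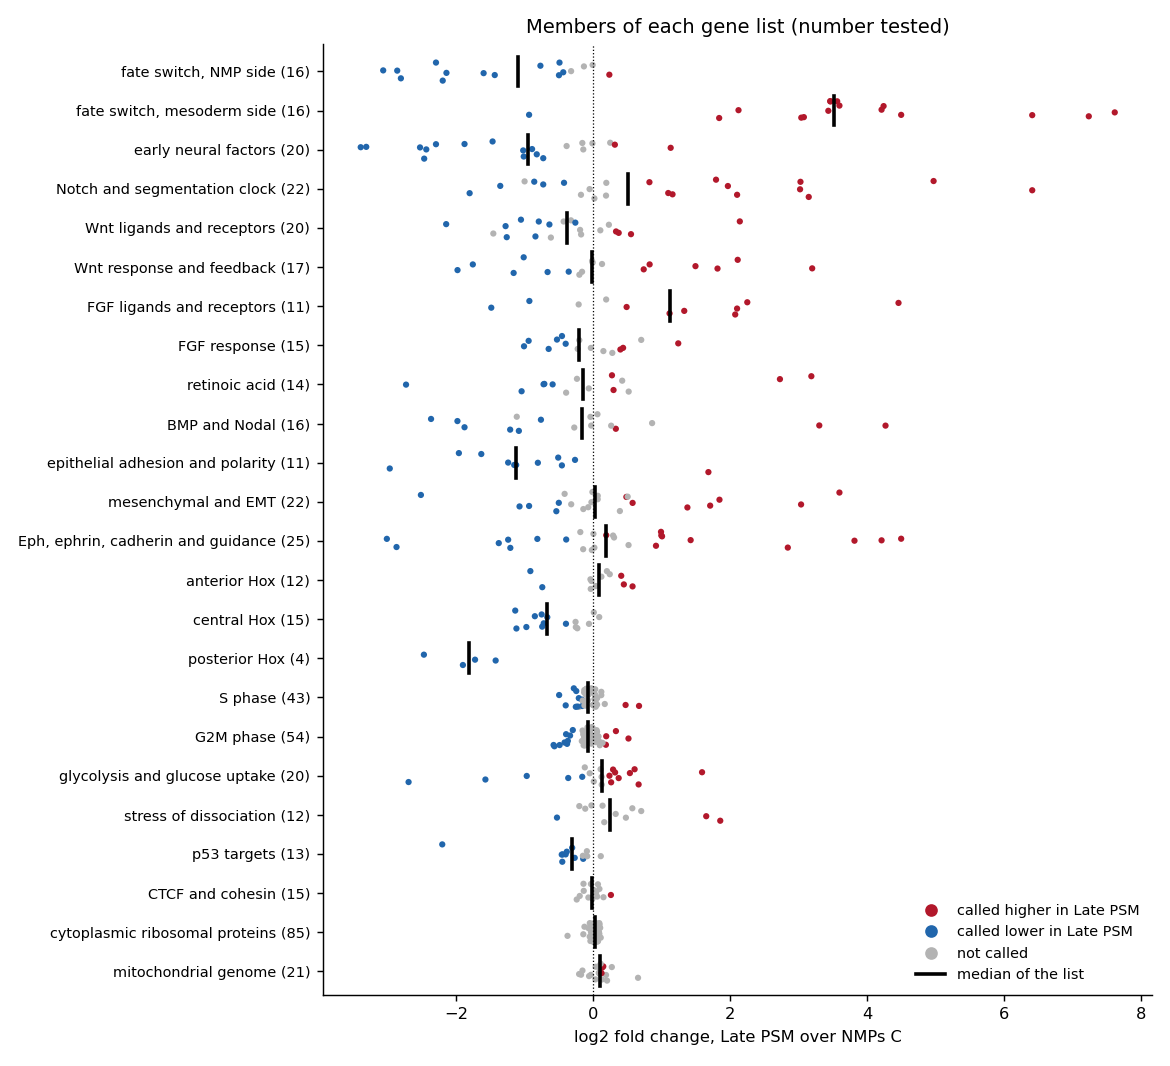
Log2 fold change of Late PSM over NMPs C (x axis) for each tested member of 24 gene lists (rows, with the number tested); red points were called higher and blue points lower in Late PSM, grey points were not called, and black bars are list medians. The point farthest right on the mesodermal row is Msgn1, whose fitted value depends on a prior count because NMPs C had 0 UMIs. The mesodermal list has its median at 3.51, whereas the cell cycle, cohesin, ribosomal and mitochondrial lists have theirs between -0.07 and 0.10.

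FGF ligands moved in opposite directions. Of 11 ligands and receptors tested, 7 were called higher and 2 lower in Late PSM, with a median log2 change of 1.12. Fgf8, the ligand of the tail bud gradient, was at 119, 102 and 154 CPM in Late PSM, against 223, 133 and 331 CPM in NMPs C, a log2 change of -0.93 ± 0.07, and Late PSM was lower within each library although the clusters overlapped. Fgf17, of the same subfamily, was at 55.1, 39.2 and 56.3 CPM in Late PSM and at 113, 69.0 and 213 CPM in NMPs C, a change of -1.48 ± 0.12. Fgf18, also of that subfamily, ran the other way, at 37.2, 28.5 and 51.8 CPM in Late PSM, against 0.942, 1.66 and 3.28 CPM in NMPs C, a change of 4.46 ± 0.17. Fgf9 (2.25 ± 0.10), Fgf15 (2.10 ± 0.18) and Fgf3 (2.08 ± 0.15) were called higher too.

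The response genes of FGF signaling did not follow one direction. Of 15 tested, 3 were called higher and 6 lower in Late PSM, with a median log2 change of -0.20, and 5 were called higher without the posterior library. The ETS factor Etv4 (-0.65 ± 0.08), the phosphatase Dusp4 (-0.94 ± 0.13), the feedback inhibitor Spry1 (-1.01 ± 0.14) and the early response gene Ier2 (-0.53 ± 0.07) were lower, and the inhibitors Spry2 (0.44 ± 0.08) and Spred2 (0.40 ± 0.07) and Phlda1 (1.24 ± 0.08) were higher. Dusp6, a standard readout of the pathway, was at 48.6, 79.3 and 60.02 CPM in Late PSM, against 51.1, 62.1 and 65.0 CPM in NMPs C, and was not called (log2 change -0.03 ± 0.07).

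Several Wnt ligands were lower in Late PSM. Of 20 ligands and receptors tested, 4 were called higher and 8 lower, with a median log2 change of -0.37. Wnt3a, the ligand that maintains NMPs, was at 9.84, 1.78 and 8.51 CPM in Late PSM, against 16.8, 9.08 and 24.9 CPM in NMPs C, a log2 change of -1.27 ± 0.15. Wnt4 (-1.26 ± 0.18), Wnt5b (-1.05 ± 0.12) and the Wnt potentiator Rspo1 (-2.14 ± 0.14) were lower as well. The receptor Fzd7 was higher, at 29.2, 33.0 and 16.96 CPM in Late PSM, against 7.26, 10.9 and 2.48 CPM in NMPs C (2.14 ± 0.15), and Rspo3, a potentiator of the PSM, was called higher at 0.55 ± 0.10. Without the posterior library the change of Wnt5b was -0.55 and that of Rspo3 0.85, both still called. Ror2 (0.34 ± 0.09) was called higher in the full fit and, at 0.17, was not called without the posterior library.

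Among the Wnt response and feedback genes, 6 were called higher and 6 lower of 17 tested, with a median log2 change of -0.01. The effector Lef1 was at 243, 286 and 241 CPM in Late PSM, against 70.2, 70.7 and 72.4 CPM in NMPs C, a change of 1.82 ± 0.06. The inhibitors Nkd2 (3.20 ± 0.15), Dkk1 (2.11 ± 0.20) and Sfrp1 (1.496 ± 0.10) were higher with it. Other inhibitors were lower: Notum (-1.75 ± 0.09), Sfrp2 (-1.16 ± 0.10), Apcdd1 (-1.01 ± 0.13) and Rnf43 (-1.98 ± 0.42), the last at no more than 2.37 CPM. The feedback genes of the pathway were thus unlike each other between the clusters, and a list median near 0 stood for changes of both signs.

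Retinoic acid is made in the paraxial mesoderm by Aldh1a2 and broken down in the tail bud by Cyp26a1. Aldh1a2 was at 10.1, 31.2 and 30.4 CPM in Late PSM, against 2.97, 0.895 and 1.73 CPM in NMPs C, a log2 change of 3.19 ± 0.29. Cyp26a1 was at 4.26, 8.02 and 14.3 CPM in Late PSM, against 34.1, 38.4 and 92.7 CPM in NMPs C, a change of -2.73 ± 0.10. Neither gene overlapped between the clusters. The binding proteins of retinoids were opposed as well. Crabp1 was at 158, 322 and 366 CPM in Late PSM, against 24.3, 48.8 and 54.1 CPM in NMPs C (2.73 ± 0.06), whereas Crabp2 (-0.71 ± 0.07) was lower, and so was the receptor Rarg (-0.72 ± 0.08). Over the 14 genes tested, 4 were called higher and 5 lower, with a median of -0.15. The calls of Rara and Stra6 (0.30 and 0.28) were lost without whole replicate 1, at 0.32 and 0.17, and without the posterior library, at 0.27 and 0.34, which left 2 called higher in each case.

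Of 16 BMP and Nodal genes tested, 3 were called higher and 6 lower in Late PSM, with a median log2 change of -0.15. Bmp2 was higher, at 13.7, 6.24 and 6.26 CPM in Late PSM, against 1.08, 1.02 and 0.807 CPM in NMPs C (3.30 ± 0.25), and so was follistatin (Fst), an inhibitor of activin and BMP, at 28.9, 43.7 and 14.3 CPM against 1.81, 1.79 and 0.519 CPM in NMPs C (4.27 ± 0.18). Id2, a BMP target, was lower, at 59.0, 54.4 and 47.2 CPM in Late PSM, against 223, 211 and 193 CPM in NMPs C (-1.98 ± 0.06). Msx1, another target, was lower at -1.87 ± 0.09. The antagonists Nog and Chrd were lower at levels of at most 4.15 and 2.43 CPM in either cluster. The log2 change of Nog was -2.36, or -4.35 without the posterior library, and that of Chrd was -1.21 and lost its call without whole replicate 1, at -1.10. Bambi (0.33) lost its call without whole replicates 1 and 2 in turn, at 0.34 and 0.27.

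Of 11 epithelial genes tested, 10 were called lower and 1 higher in Late PSM, with a median log2 change of -1.12. Without the posterior library 5 were called lower, with a median of -0.58, and without whole replicate 1 there were 7, with a median of -0.85. The adhesion molecule Epcam was at 2.496, 8.91 and 8.45 CPM in Late PSM, against 11.6, 11.6 and 25.6 CPM in NMPs C (-1.63 ± 0.16), and the laminin receptor Itga6 at 13.4, 20.5 and 16.1 CPM against 33.9, 39.6 and 37.6 CPM in NMPs C (-1.24 ± 0.09). The tight junction genes Cldn6 (-2.96 ± 0.44) and Ocln (-1.96 ± 0.59) stayed at or under 4.67 CPM in both clusters, and Ocln lost its call without whole replicate 1, at -1.70. Lama1, a basement membrane laminin, was the member called higher (1.68 ± 0.10). Epcam, Krt8, Krt18 and Cldn6 are also markers of endoderm, whose list was called lower for 5 of 6 markers tested (2 without the posterior library and 3 without whole replicate 1), and the part of endoderm cells in these values was not tested.

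Of 22 mesenchymal and epithelial-to-mesenchymal transition genes, 7 were called higher and 5 lower, with a median log2 change of 0.03, and 3 were called lower without whole replicate 1 or without the posterior library. Snai1, the repressor of E-cadherin in gastrulation and in the PSM, was at 47.4, 49.0 and 45.0 CPM in Late PSM, against 3.66, 1.92 and 4.84 CPM in NMPs C, a change of 3.60 ± 0.14. Fibronectin (Fn1) was at 163, 203 and 130 CPM in Late PSM, against 53.6, 49.0 and 41.4 CPM in NMPs C (1.71 ± 0.07). Its receptor subunit Itga5 (1.85 ± 0.18) and Pdgfra (3.04 ± 0.23) were higher with it. Vim, often taken as a mesenchymal marker and also expressed in neural progenitors, was lower, at 180, 131 and 157 CPM in Late PSM, against 280, 191 and 212 CPM in NMPs C (-0.53 ± 0.06). Cdh11 (-1.07 ± 0.24) and Cdh6 (-2.51 ± 0.31) were lower, with Cdh6 at -3.99 without the posterior library. N-cadherin (Cdh2) was at 176, 178 and 101 CPM in Late PSM and at 175, 200 and 96.6 CPM in NMPs C, and was not called (log2 change -0.01 ± 0.06).

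Guidance and sorting genes changed in both directions. Of 25 tested, 10 were called higher, 7 lower and 8 not called in Late PSM, with a median log2 change of 0.19. Epha5, a receptor of ephrins, was at 14.1, 18.7 and 24.7 CPM in Late PSM, against 149, 181 and 169 CPM in NMPs C, a change of -3.01 ± 0.09. The repellent Sema3a was at 3.67, 4.46 and 8.57 CPM in Late PSM, against 64.5, 92.8 and 37.9 CPM in NMPs C (-2.87 ± 0.19). Its class of receptors ran the other way in Plxna2, at 42.0, 80.2 and 39.0 CPM in Late PSM, against 3.84, 4.35 and 2.19 CPM in NMPs C (3.82 ± 0.13). Protocadherins Pcdh19 and Pcdh8 (4.50 ± 0.09 and 4.21 ± 0.20) and netrin Ntn1 (2.84 ± 0.15) were higher, and Epha1 and Epha2 (-1.24 ± 0.13 and -1.37 ± 0.19) were lower.

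Hox genes differed by paralogue number. Of 12 anterior genes (paralogues 1 to 4), 3 were called higher and 2 lower in Late PSM, with a median log2 change of 0.08. Of 15 central genes (paralogues 5 to 9), 0 were called higher and 9 lower, with a median of -0.67. None of the central genes was called higher at an unadjusted p under 0.05 or by DESeq2 either. All 4 posterior genes tested were called lower, with a median of -1.81, and the other 6 posterior genes in the table were under the limit of counts for a test.

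Hoxb1 was at 185, 162 and 152 CPM in Late PSM, against 117, 104 and 110 CPM in NMPs C, a log2 change of 0.58 ± 0.06. Hoxb4, at 207, 176 and 175 CPM in Late PSM and 200, 184 and 184 CPM in NMPs C, was not called (-0.02 ± 0.05). Hoxa7 was at 98.7, 95.3 and 141 CPM in Late PSM, against 217, 179 and 316 CPM in NMPs C (-1.12 ± 0.06). Hoxc10 was at 48.2, 14.3 and 16.1 CPM in Late PSM, against 224, 116 and 103 CPM in NMPs C, a change of -2.47 ± 0.09, and was highest in whole replicate 1 in both clusters. Hoxa10 (-1.72 ± 0.13), Hoxd10 (-1.90 ± 0.22) and Hoxd11 (-1.42 ± 0.38) were lower too, Hoxd11 at no more than 4.54 CPM.

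All 4 HoxC genes of the central list, and Hoxc4, were called lower, from -0.72 ± 0.11 for Hoxc5 to -0.97 ± 0.07 for Hoxc6. Their HoxB neighbours Hoxb5, Hoxb6 and Hoxb8 were not called, at -0.25, -0.25 and -0.06. The difference between the clusters of Hox genes was not tested. Hoxa2, Hoxa6 and Hoxd11 (0.45, -1.13 and -1.42) lost their calls without the posterior library, at 0.27, -1.07 and -1.01. Without that library 1 anterior gene was called higher, in place of 3. Hoxd11 was at -2.75 without whole replicate 1. Hoxb6, at -0.41, was called lower without the posterior library, and Hoxd9 (-0.23, not called) was at 0.04 without it and was called lower without whole replicate 1 or 2, at -0.34 and -0.29.

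**Figure D5:**
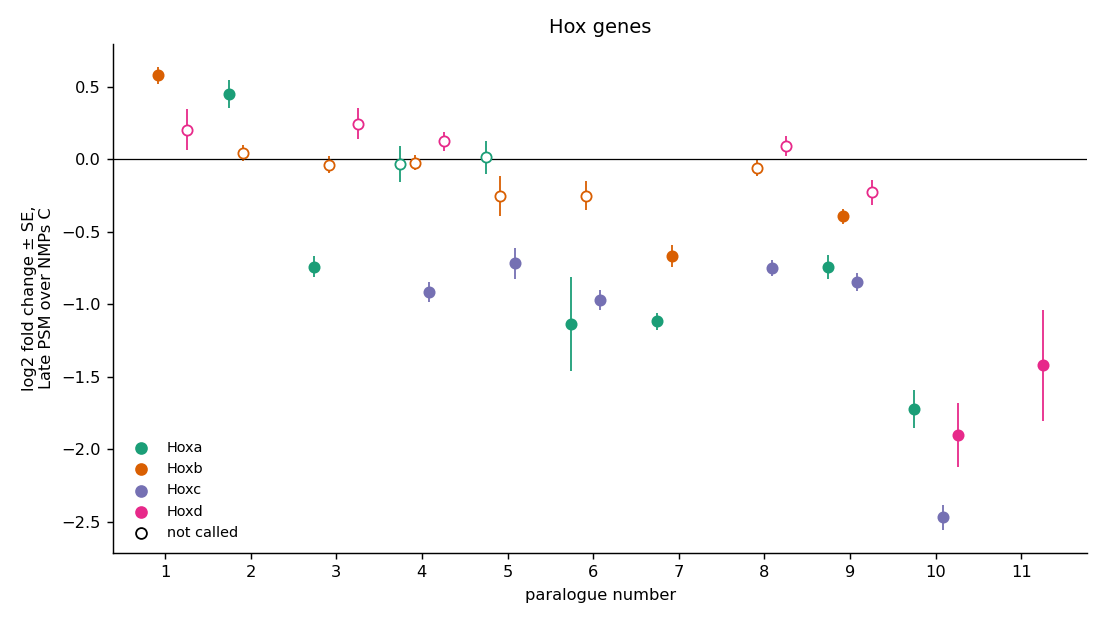
Log2 fold change of Late PSM over NMPs C with its SE (y axis) for Hox genes tested, by paralogue number (x axis) and Hox cluster (colour); open symbols were not called. Among the genes plotted, Hoxa2 and Hoxb1 were called higher in Late PSM, and Hoxc10 has the lowest value, -2.47.

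Genes of glucose uptake and glycolysis changed in both directions. Of 20 genes tested, 9 were called higher and 5 lower in Late PSM, with a median log2 change of 0.13. The transporter Slc2a3 was at 26.3, 38.3 and 24.7 CPM in Late PSM, against 188, 261 and 147 CPM in NMPs C (-2.69 ± 0.07), and Slc2a1 at 98.8, 121 and 153 CPM against 305, 448 and 405 CPM in NMPs C (-1.57 ± 0.06). Hk1, the first enzyme of the pathway, was lower at -0.97 ± 0.17. Downstream, aldolase A (Aldoa) was at 953, 970 and 1097 CPM in Late PSM, against 580, 615 and 711 CPM in NMPs C (0.67 ± 0.05), and lactate dehydrogenase A (Ldha) at 1555, 1917 and 2148 CPM against 1075, 1417 and 1383 CPM in NMPs C (0.54 ± 0.05). The lactate exporter Slc16a3 was higher at 1.59 ± 0.10, and Slc16a1, another monocarboxylate transporter, lower at -0.36 ± 0.07. Gapdh was not called (-0.12 ± 0.05). Aldoc, at 0.61, was called in the full fit but was at 0.01 without the posterior library.

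Of 13 targets of p53, 9 were called lower and 0 higher in Late PSM, with a median log2 change of -0.30. No member was called higher at an unadjusted p under 0.05 or by DESeq2. Pmaip1 (Noxa), an inducer of apoptosis, was at 2.64, 5.35 and 0.814 CPM in Late PSM, against 12.6, 11.4 and 4.78 CPM in NMPs C (-2.20 ± 0.23). Cdkn1a (p21), an inhibitor of the cell cycle, was at 94.9, 98.02 and 88.9 CPM in Late PSM, against 113, 120 and 140 CPM in NMPs C, a change of -0.44, or -0.26 without the posterior library. Without that library 4 members were called lower, and without whole replicate 1 there were 6. With cells thinned to 5000 UMIs, 1 member was called higher.

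Cell cycle, cohesin, ribosomal and mitochondrial lists had small median changes. Of 43 S-phase genes, 2 were called higher and 9 (20.9%) lower. Of 54 G2/M genes, 4 were called higher and 9 (16.7%) lower, and both lists had a median log2 change of -0.07. Over all genes tested 11.0% were called lower. By the authors' phase, G1 cells made up 30.2%, 28.2% and 39.8% of Late PSM, against 19.7%, 23.5% and 34.2% of NMPs C. For G2/M cells the shares were 33.7%, 33.6% and 37.7%, against 43.1%, 40.6% and 42.4%. For S cells they were 36.1%, 38.2% and 22.5%, against 37.1%, 35.9% and 23.4%. Without whole replicate 1 the S-phase list had 1 higher and 2 lower and the G2/M list 3 higher and 6 lower, and without whole replicate 2 the G2/M list had 5 higher and 14 lower. Among 15 genes of CTCF and cohesin, Pds5b was called higher (0.26 ± 0.06) and 0 lower, and without the posterior library Pds5b, at 0.21, was not called. At an unadjusted p under 0.05 there were 2 such genes, and DESeq2 called 0. Of 85 cytoplasmic ribosomal protein genes, 0 were called by edgeR or by DESeq2, 5 had an unadjusted p under 0.05, and 45 were called higher and 1 lower without whole replicate 2, with a median of 0.07 there. Of 21 mitochondrial genes, 3 were called higher (mt-Nd2, mt-Nd4 and mt-Cytb, at 0.15, 0.13 and 0.13), with a median of 0.10, and none of the 3 was called without whole replicate 1 (0.19, 0.18 and 0.16) or without the posterior library (0.18, 0.13 and 0.12). The median share of UMIs from mitochondrial genes was 2.31% in Late PSM cells and 2.14% in NMPs C cells (means over libraries), higher in Late PSM in 3 of 3. Of 12 genes induced by cell dissociation, Btg2 (1.86 ± 0.08) and Jun (1.65 ± 0.11) were called higher and Ier2 lower, and without whole replicate 1 there were 4 called higher.

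Among the 12 genes of each direction with the largest called changes at a level of at least 50 CPM, most belonged to the lists above. Of the others, Rnf213, a large E3 ubiquitin ligase, was at 47.1, 60.6 and 52.4 CPM in Late PSM, against 3.28, 2.69 and 3.63 CPM in NMPs C (3.94 ± 0.12), and Inka1, an inhibitor of the kinase PAK4, was higher at 3.13 ± 0.09. Tril, a coreceptor of Toll-like receptors, was at 13.5, 9.80 and 14.2 CPM in Late PSM, against 78.5, 71.2 and 85.1 CPM in NMPs C (-2.58 ± 0.08). Aopep (-2.62 ± 0.08), the imprinted zinc-finger gene Plagl1 (-2.13 ± 0.17) and the ubiquitin ligase Trim2 (-2.11 ± 0.09) were lower as well. None of these 6 genes overlapped between the clusters. They were chosen for large changes of the same sign in every library, so this is no separate result.

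Set beside other clusters of the same libraries, on a scale fitted over all of them, several genes had higher levels elsewhere. Ripply2 averaged 11.2 CPM in Late PSM, 0.301 CPM in NMPs C and 93.7 CPM in the cluster named Determination front. Tcf15 averaged 205 CPM in Late PSM, 20.9 CPM in NMPs C and 972 CPM in Determination front. Mesp2 averaged 43.8 CPM in Late PSM, 0.553 CPM in NMPs C and 40.6 CPM in Determination front. Over the libraries it ran from 15.6 to 76.6 CPM in Late PSM and from 19.1 to 79.9 CPM in Determination front. These ranges overlapped, unlike those of Ripply2 and Tcf15. Msgn1 averaged 1.56 CPM in Late PSM, 0 CPM in NMPs C and 2.67 CPM in Early PSM, which had enough cells in 2 libraries. Pax6 averaged 0.846 CPM in Late PSM, 5.57 CPM in NMPs C and 63.1 CPM in Spinal cord B. Pax6 averaged 4.29 CPM in Spinal cord A, and Sox1 averaged 0.542 CPM in Late PSM, 11.7 CPM in NMPs C, 11.9 CPM in Spinal cord A and 37.1 CPM in Spinal cord B. These levels are means over the libraries and were not tested.

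The libraries gave similar changes. Over the 3260 genes with a mean of at least 50 CPM in either cluster, the log2 ratios of the 2 clusters correlated at 0.900 between the whole replicates, 0.938 between whole replicate 1 and the posterior library, and 0.864 between whole replicate 2 and the posterior library. These are correlations across genes, which share depth and level and are not independent replicates. Late PSM made up 8.77%, 4.10% and 16.1% of the cells of the libraries, against 32.5%, 24.3% and 15.9% for NMPs C, and the posterior dissection was the library in which Late PSM was not the smaller cluster. No cell of either cluster was found among the 3944 cells of the anterior part.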

How the data were processed

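Single-cell RNA sequencing libraries (10x Genomics) were processed by the authors, per the submitters' processing notes and methods, with Cell Ranger 6.0 against mm10 and with Seurat 4.0.2. The deposited counts are UMIs per gene and cell. The mitochondrial percentage, the cell cycle scores, the phase and the cluster name of each cell were computed by the authors and used as deposited. The authors had removed cells with few genes, extreme UMI totals or extreme mitochondrial shares; no doublet caller is stated and none was run here, and an alternative kept cells up to 1.5 times the mean UMIs. Members and gene lists were chosen with earlier results of these data known.

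UMI counts were summed per cluster and library where at least 20 cells were present, filtered with filterByExpr, scaled by TMM and tested with edgeR 4.0.16 (R 4.3.3) with the library as a block, with Benjamini-Hochberg adjustment at 0.05. With 3 libraries this left 2 residual degrees of freedom. The library is the block because both sums of a pair come from the same library, and each library is also a batch in the annotation. Deviations from the cluster means correlated at 0.503, 0.414 and 0.646 within libraries. Shares of cells were compared with exact two-sided permutation tests, and their exact binomial intervals (95%) cover counting error only. Alternatives were DESeq2 1.42.0, other scaling and filters, no block, each library left out, G1 cells only and thinned cells. The fit was tested on simulated data. Among these cells 1 barcode was shared between libraries.

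Named genes were the 12 in each direction with the largest changes among called genes with at least 50 CPM, changed the same way in every library, fixed fate and clock genes, and the largest called members of each list (up to 4 higher and 4 lower). Promoter sequences were from RefSeq (GRCm38.p6), in which 32 of 43 genes looked up were matched. Some members of the lists are counted but not reported here by name or plotted singly.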

Additional observations from a re-analysis of the deposited data

Results flagged for a closer look

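Cells of both clusters were also present at 96 h, in libraries outside the comparison. Whole replicate 1 at 96 h held 49 Late PSM cells and 24 NMPs C cells, and whole replicate 2 at 96 h held 5 Late PSM cells and 9 NMPs C cells, which were too few to sum. Of the genes called at 120 h that differed in whole replicate 1 at 96 h, 931 of 1338 (69.6%) that were higher and 1134 of 1396 (81.2%) that were lower in Late PSM had the same sign there, and past 2-fold these shares were 81.5% and 85.4%. Of the genes called past 2-fold at 120 h with at least 50 CPM in the cluster where they were higher, 52 of 54 that were higher and 44 of 44 that were lower in Late PSM had the same sign. The authors drew the clusters over these cells too, so this is no independent check.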

How the results depend on the processing

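Without the replicate block (here the library), 274 genes were called higher and 234 lower in Late PSM, and 259 and 221 past 2-fold, in place of 1376, 1507, 442 and 552. DESeq2 called 683 and 662, with 355 lower past 2-fold. G1 cells gave 612, 664, 237 and 301, and cells thinned to 5000 UMIs 842, 912, 280 and 361; the numbers of genes tested were then 10625 and 11384. Leaving out each library gave 891 to 1769 higher and 943 to 1688 lower. The log2 change of T ranged from -0.45 to 0.11 over these fits, that of Fabp7 from -0.10 to 0.65, Hoxa4 from -0.11 to 0.19, Hoxb4 from -0.060 to 0.016, Hoxa5 from -0.26 to 0.15 and Hoxd9 from -0.34 to 0.042. Fabp7 was at -0.10 in G1 cells. Hoxa4 was at 0.026 with DESeq2 and 0.046 without the block. Hoxa5 was at -0.019 without scaling factors, -0.0030 without the filter, -0.074 with DESeq2 and -0.11 without the block. Hoxd1 and Hoxd8 were at -0.16 and -0.017 in thinned cells. The causes were not tested. Of 166 named genes, 85 lost their call without the block and 25 with DESeq2. In G1 cells 19 lost it and in thinned cells 12, counted only among named genes still tested there, which were fewer than 166. Scaling by RLE cost 1 call. Summing the dissected parts changed none of these results, because the anterior part held no cell of either cluster. Depth limits genes near 1 CPM, such as Msgn1, and whole replicate 2 with 110 Late PSM cells.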

Other observations

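Genes outside the lists, picked after their values were seen, also set the clusters apart. Lor, known as loricrin of the epidermis, was at 52.4, 32.1 and 49.1 CPM in Late PSM, against 2.02, 0.767 and 3.40 CPM in NMPs C, a log2 change of 4.36. The chemokine Cxcl12 was at 35.4, 36.5 and 29.3 CPM in Late PSM, against 8.24, 9.08 and 2.07 CPM in NMPs C (2.56), and the stress-induced mTOR inhibitor Ddit4 at 194, 212 and 145 CPM in Late PSM, against 60.7, 57.5 and 45.7 CPM in NMPs C (1.71). All of these were higher in every library.

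In the other direction, the Polycomb cofactor Jarid2 was at 37.6, 22.3 and 33.7 CPM in Late PSM, against 144, 126 and 88.4 CPM in NMPs C (-1.71). Greb1 was at 80.8, 55.2 and 66.0 CPM in Late PSM and at 242, 192 and 212 CPM in NMPs C (-1.66). Bex1 was at 142, 145 and 191 CPM in Late PSM and at 430, 438 and 482 CPM in NMPs C (-1.48). These genes did not overlap between the clusters, but they were picked after their values were seen, so this is no separate result.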
